A study of Oryza sativa with 36 samples.

Results

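The genes described here are 9 sugar transporter genes of rice, 5 sucrose transporter (SUT) genes and 4 SWEET genes, chosen by gene ID from the 37862 IDs counted in rice florets. They are SUT1 (Os03g0170900), SUT2 (Os12g0641400), SUT3 (Os10g0404500), SUT4 (Os02g0827200), SUT5 (Os02g0576600), SWEET4 (Os02g0301100), SWEET11 (Os08g0535200), SWEET14 (Os11g0508600) and SWEET15 (Os02g0513100). All 9 were among the 26726 genes that passed the filter on low counts. RNA was sequenced from whole florets of the rice cultivar IR64, the wild-type control, and of OsEPF1-oeS (OsEPF1-oe in the sample labels), a transgenic line in IR64 that overexpresses OsEPF1, the gene of a secreted peptide that restrains stomatal development. The labels name 1 overexpression genotype. They do not state how many independent lines it holds, and the sources used here do not give the promoter that drives its transgene. Developing florets of 5 numbered stages came from plants of about 75 to 85 days after sowing. Mature florets were taken at about 95 days after sowing, once the panicle had headed but before the flowers opened. Each of the 12 groups (2 lines by 6 stages) held 3 libraries. Per the labels, all plants had 12 h of light, 30 °C days, 24 °C nights and the same humidity. They also state that the RNA of 3 plants was mixed for each developing replicate, while pooling of mature replicates is not stated.

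SUT proteins are proton-coupled carriers that take sucrose up into a cell or release it from the vacuole. SWEET proteins are uniporters that let sucrose or hexoses pass down their gradient, out of cells as well as into them. In the flower, developing pollen has no symplastic connection to the surrounding anther tissue, so sugar must leave the tapetum and enter the pollen through such carriers or after cleavage by invertases. SUT1 and SWEET11 of rice are both known for roles in pollen as well as in the filling of the grain.

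OsEPF1 itself (Os04g0637300) lay between 1001 and 3773 CPM (counts relative to the scaled library size) in the 18 OsEPF1-oeS libraries and between 0 and 2.50 CPM in the 18 IR64 libraries. Total counts ran from 22372257 to 55476576 per library. The 3 libraries farthest from the other libraries of their groups were IR64 mature replicate 3, IR64 stage 3 replicate 1 and OsEPF1-oeS stage 5 replicate 1. Summed levels of 8 tapetum genes and of 6 green tissue genes were lower in OsEPF1-oeS during development, and 6 late pollen genes were close to 0 until the florets were mature. These values stand beside the results they touch. Differences below are log2 fold changes ± standard error (SE) from edgeR's quasi-likelihood test on all 36 libraries, and a gene counts as called where its p, adjusted by Benjamini-Hochberg over the 26726 genes, was under 0.05. CPM is not divided by transcript length, so levels are compared between stages and lines of a gene and not between genes. In whole florets, fewer cells of a type and less RNA per cell cannot be told apart.

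**Figure D1:**
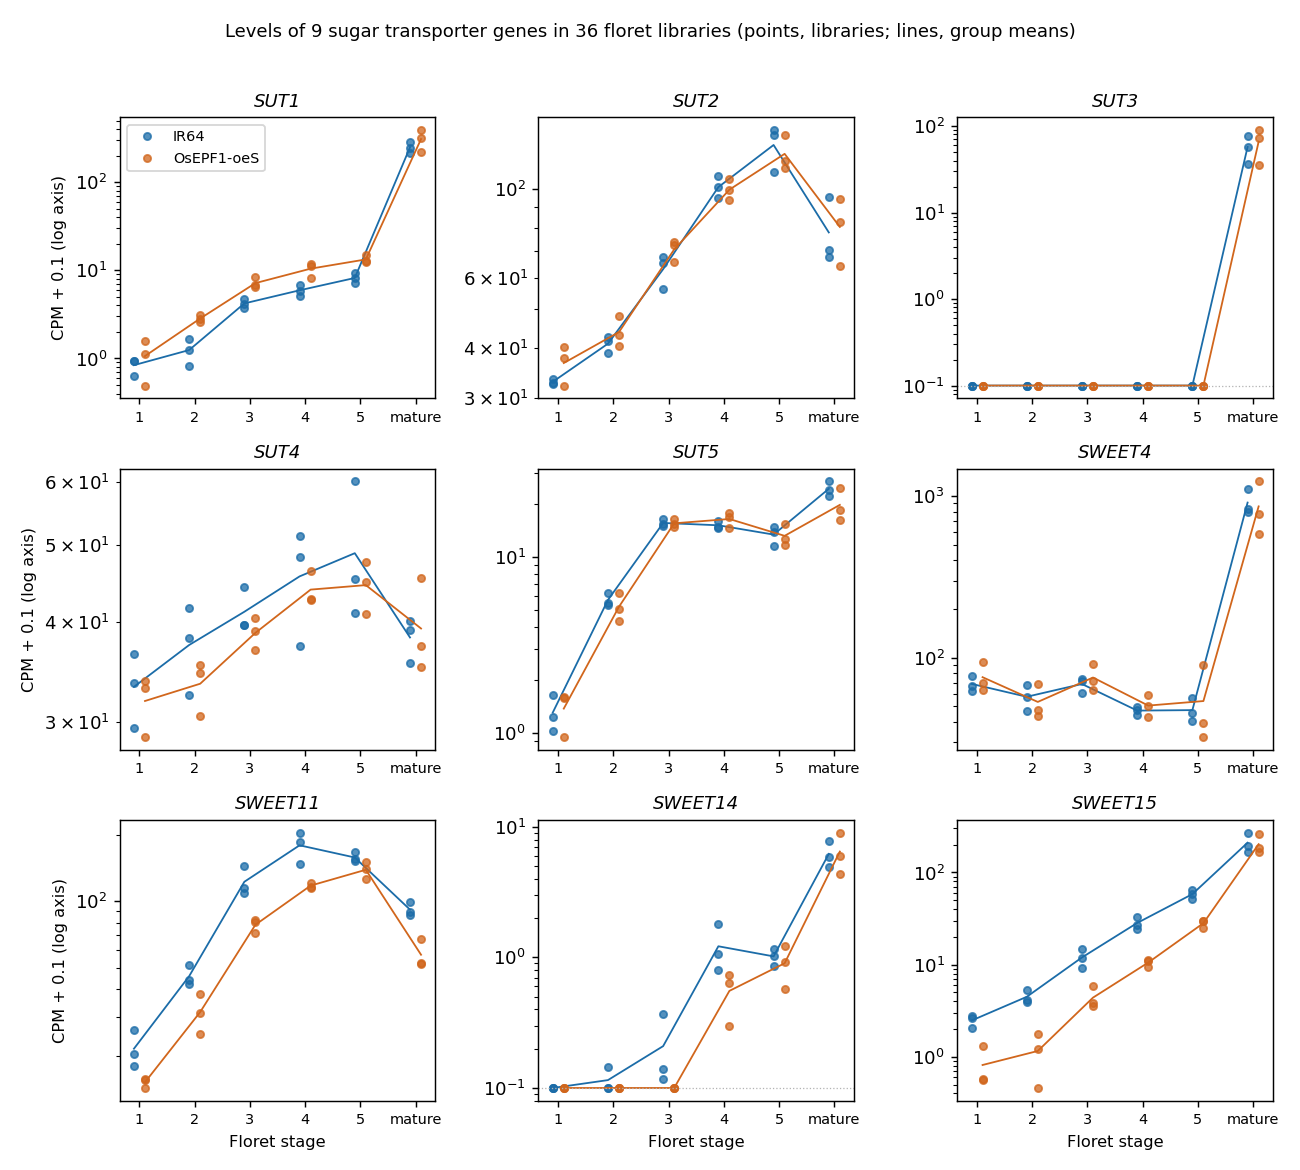
CPM plus 0.1 on a log axis for each of the 9 genes at 6 floret stages, with a point for each of the 36 libraries and lines through the group means of IR64 (blue) and OsEPF1-oeS (orange). SWEET15 and SWEET11 of OsEPF1-oeS run below IR64 through stages 1 to 5, SUT1 of OsEPF1-oeS runs above it from stages 2 to 5, and SUT3 is at 0 counts, the dotted line, in all 30 developing libraries.

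SWEET15, a sucrose carrier that acts with SWEET11 in the developing grain of rice, was lower in OsEPF1-oeS at all 5 developing stages and not called in mature florets. At stage 1, IR64 held 2.64, 1.94 and 2.54 CPM and OsEPF1-oeS 1.22, 0.469 and 0.457 CPM. At stage 2, the IR64 libraries lay at 5.25, 3.84 and 4.04 CPM and the OsEPF1-oeS libraries at 1.69, 1.12 and 0.359 CPM. The lines did not overlap at either stage, and their differences were -1.71 ± 0.37 (adjusted p = 0.018) and -1.99 ± 0.34 (adjusted p = 0.00088). At stage 3, the values were 14.7, 9.17 and 11.7 CPM in IR64 against 5.70, 3.74 and 3.41 CPM, and at stage 4 they were 33.1, 27.0 and 24.5 CPM against 11.0, 9.21 and 11.1 CPM. The lines again did not overlap, with differences of -1.47 ± 0.28 (adjusted p = 0.0029) and -1.44 ± 0.27 (adjusted p = 0.0018). At stage 5, IR64 reached 65.0, 57.8 and 51.5 CPM and OsEPF1-oeS 29.9, 29.3 and 25.0 CPM, without overlap, a difference of -1.05 ± 0.26 (adjusted p = 0.023). In mature florets the lines overlapped, with 165, 195 and 271 CPM in IR64 and 184, 258 and 165 CPM in OsEPF1-oeS, and the difference of -0.06 ± 0.25 did not pass (adjusted p = 0.95). The mean difference over the 6 stages was -1.28 ± 0.12 (adjusted p = 1.1e-08).

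The difference between the lines in SWEET15 itself differed between stages (F = 5.96 for the genotype by stage interaction, adjusted p = 0.038). SWEET15 was the only 1 of the 9 genes called in that test, where 2.24% of all tested genes were called. The interaction call was lost without 19 of the 36 libraries when each was left out in turn. Without IR64 mature replicate 1 or 2 its adjusted p was 0.12, without OsEPF1-oeS mature replicate 2 it was 0.15, and without the others of these 19 it was 0.050 to 0.068. The stage 1 call was lost without replicate 1 (adjusted p = 0.11) or 3 (0.060) of IR64, or replicate 2 (0.13) or 3 (0.12) of OsEPF1-oeS. The stage 5 call was lost without replicate 1 (adjusted p = 0.12) or 2 (0.064) of IR64, or replicate 2 (0.079) or 3 (0.13) of OsEPF1-oeS. Over all alternatives the adjusted p ran from 7.7e-05 to 0.13 at stage 1 and from 0.0049 to 0.13 at stage 5. The calls at stages 2, 3 and 4 held when any 1 library was left out. With the 6 libraries of a comparison fitted alone, the calls at stages 1, 2 and 3 were lost (adjusted p of 0.11, 0.077 and 0.11). The stage 4 call passed under every alternative run.

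SWEET11, the sucrose carrier also known as Xa13 or Os8N3 and a target of bacterial blight effectors, was lower in OsEPF1-oeS at stages 3 and 4 and in mature florets. At stage 1, IR64 held 17.8, 26.1 and 20.3 CPM and OsEPF1-oeS 14.2, 15.6 and 15.4 CPM. At stage 2, IR64 held 51.4, 43.7 and 41.9 CPM and OsEPF1-oeS 38.1, 31.1 and 25.0 CPM. The lines did not overlap at either stage, but the differences of -0.51 ± 0.15 (adjusted p = 0.14) and -0.54 ± 0.15 (adjusted p = 0.068) did not pass. At stage 3, IR64 held 144, 114 and 109 CPM and OsEPF1-oeS 82.5, 80.3 and 71.6 CPM. At stage 4, IR64 held 205, 185 and 148 CPM and OsEPF1-oeS 121, 117 and 115 CPM. These differences, again without overlap, were -0.65 ± 0.14 (adjusted p = 0.011) and -0.61 ± 0.14 (adjusted p = 0.016). At stage 5, IR64 held 156, 166 and 152 CPM and OsEPF1-oeS 126, 150.5 and 140.3 CPM, a difference of -0.19 ± 0.14 that did not pass (adjusted p = 0.70). Mature florets held 89.0, 98.8 and 86.9 CPM in IR64 and 51.6, 52.4 and 67.4 CPM in OsEPF1-oeS, a difference of -0.68 ± 0.14 (adjusted p = 0.0091). The mean difference over 6 stages was -0.53 ± 0.06 (adjusted p = 2e-07), and the interaction with stage did not pass (adjusted p = 0.74).

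Leaving out single libraries ended each of the SWEET11 calls at single stages. At stage 3 the call was lost without IR64 replicate 1 (adjusted p = 0.12) or without replicate 2 (0.050) or 3 (0.093) of the overexpression line, and also without the 3 libraries farthest from their groups (0.089). At stage 4 it was lost without replicate 1 (adjusted p = 0.12) or 2 (0.074) of IR64, or replicate 2 (0.074) or 3 (0.086) of OsEPF1-oeS. In mature florets it was lost without IR64 replicate 2 (adjusted p = 0.053) or OsEPF1-oeS replicate 2 (0.060). At stage 2 the difference passed without OsEPF1-oeS replicate 1 (-0.70, adjusted p = 0.018), without the 3 farthest libraries (0.046) and with DESeq2 (0.025). Fitted on their own 6 libraries, the differences at stage 3 and in mature florets were not called (adjusted p of 0.13 and 0.34). The adjusted p over all alternatives reached 0.13 at stage 3, 0.12 at stage 4 and 0.34 in mature florets, and lay between 0.018 and 0.41 at stage 2. The mean over 6 stages passed under every alternative run, at an adjusted p of at most 1e-06.

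SUT1, a sucrose and proton symporter of the plasma membrane, was higher in OsEPF1-oeS at stage 2 and in the mean over stages. At stage 1 the lines overlapped, with 0.834, 0.846 and 0.538 CPM in IR64 and 1.49, 1.01 and 0.392 CPM in OsEPF1-oeS (0.37 ± 0.35, adjusted p = 1). At stage 2, IR64 held 1.55, 0.728 and 1.16 CPM and OsEPF1-oeS 3.02, 2.70 and 2.51 CPM. Stage 2 was the only single stage called for SUT1, without overlap of the lines, at 1.28 ± 0.29 (adjusted p = 0.017). At stage 3, IR64 held 4.09, 4.63 and 3.65 CPM and OsEPF1-oeS 8.25, 6.67 and 6.31 CPM (0.79 ± 0.24, adjusted p = 0.10). At stage 4, IR64 held 5.75, 6.74 and 5.05 CPM and OsEPF1-oeS 11.8, 8.19 and 11.1 CPM (0.83 ± 0.23, adjusted p = 0.051). At stage 5, IR64 held 8.04, 9.17 and 7.11 CPM and OsEPF1-oeS 14.8, 12.2 and 12.7 CPM (0.71 ± 0.23, adjusted p = 0.11). The lines did not overlap at stages 3, 4 and 5, where the difference did not pass. Mature florets overlapped, with 216, 287 and 246 CPM in IR64 and 319, 391 and 221 CPM in OsEPF1-oeS (0.31 ± 0.21, adjusted p = 0.52).

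The mean difference of SUT1 over 6 stages was 0.71 ± 0.11 (adjusted p = 2.7e-05) and passed under every alternative run. The stage 2 call was lost without replicate 2 (adjusted p = 0.13) or 3 (0.082) of IR64, or replicate 1 (0.086) or 2 (0.063) of OsEPF1-oeS. It was also lost with the 6 libraries of stage 2 fitted alone, and over all alternatives its adjusted p ran from 0.00033 to 0.13. At stage 4 the difference passed without OsEPF1-oeS replicate 2 (0.97, adjusted p = 0.049), without the 3 libraries farthest from their groups (0.044), with DESeq2 (0.013) and with the replicate number as a block (0.84, adjusted p = 0.027). It also passed with upper-quartile scaling (0.048) and with a filter of at least 5 CPM in at least 3 libraries (0.046), and over all alternatives its adjusted p lay between 0.013 and 0.20. The stage 3 difference passed with DESeq2 (0.031) and under no other alternative. At stage 1 the sign turned to -0.12 without OsEPF1-oeS replicate 1. The interaction of line and stage did not pass for SUT1 (adjusted p = 0.67).

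None of the other 6 genes was called between the lines at a stage or over the mean. Their adjusted p values ran from 0.28 to 1 at single stages. SUT2, SUT4, SUT5 and SWEET4 had mean differences over 6 stages of 0.06 ± 0.05, -0.08 ± 0.05, -0.04 ± 0.07 and 0.06 ± 0.11. SUT3, measured in mature florets only, differed there by 0.20 ± 0.39 (adjusted p = 0.86). At stage 4 SWEET14 held 1.70, 0.958 and 0.698 CPM in IR64 and 0.538, 0.197 and 0.628 CPM in OsEPF1-oeS. These libraries did not overlap, but the difference of -1.29 ± 0.56 did not pass (adjusted p = 0.28).

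In all, OsEPF1-oeS differed from IR64 in 9 of the 54 pairs of gene and stage, being higher in 1 and lower in 8. By stage, 1 of 9 genes was called at stage 1, where 0.834% of all tested genes were called, 2 at stage 2 (1.18% of all), 2 at stage 3 (1.69%), 2 at stage 4 (2.38%), 1 at stage 5 (2.45%) and 1 in mature florets (2.02%). In the mean over 6 stages 3 of 9 were called, 1 higher and 2 lower, beside 10.6% of all tested genes. The median difference of the genes above the floor of 3 counts lay between -0.13 and 0.08 at the single stages and was -0.04 in the mean, beside medians over all genes of -0.03 to 0.01.

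**Figure D2:**
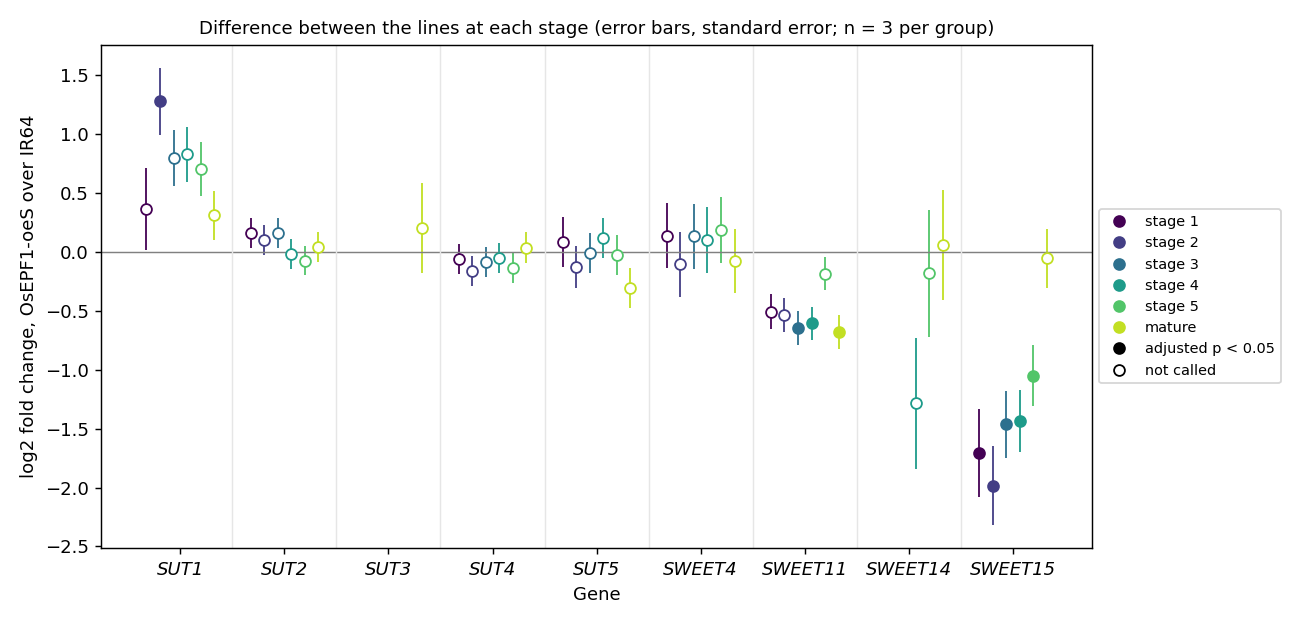
Log2 fold change of OsEPF1-oeS over IR64 for the 9 genes at 6 stages (colours), with bars of 1 standard error and filled points for an adjusted p under 0.05. The filled points are SWEET15 at stages 1 to 5, SWEET11 at stages 3 and 4 and in mature florets, and SUT1 at stage 2; gene and stage pairs with a group at 3 counts or fewer have no point.

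Markers of the tapetum, the anther layer that nourishes pollen, were lower in developing OsEPF1-oeS florets. Their summed CPM over 8 genes was lower in OsEPF1-oeS without overlap at all 5 developing stages: 21.9 to 26.8 in IR64 against 16.3 to 21.3 at stage 1, and 1207 to 2267 against 446 to 863 at stage 5. In mature florets the lines overlapped, at 184 to 196 against 102 to 202. The ratio of the mean sums, OsEPF1-oeS over IR64, was lowest at stage 5 (0.359). At that stage SWEET15 was called lower, and SWEET11 was lower without overlap (-0.19) but not called. In mature florets SWEET11 was called lower and SWEET15 was not called. By gene, 0, 2, 1, 3 and 4 of the 8 tapetum markers were called lower at stages 1 to 5 and none in mature florets. Over all tested genes, 0.834%, 1.18%, 1.69%, 2.38%, 2.45% and 2.02% were called at these stages, in either direction. At stage 1 the median difference of the 7 tapetum markers above the floor was -0.27. The tapetum calls included EAT1 at stage 2 (-4.41 ± 0.58, adjusted p = 2.5e-05) and TDR at stages 3 (-1.10 ± 0.25, adjusted p = 0.012) and 4 (-0.93 ± 0.24, adjusted p = 0.034). TDR and EAT1 encode transcription factors of the tapetum, and EAT1 was called in the genotype by stage interaction (F = 11.63, adjusted p = 0.0017). Replicate 1 had the highest tapetum sum of the 3 libraries in all 12 groups, and the highest SWEET15 level in 9 of the 10 developing groups. For SWEET11 and SUT1 it was the highest in 6 of 10 each. With the replicate number as a block, every call of the 9 genes between the lines was kept. The 6 green tissue genes were lower in sum without overlap at stages 2 to 5, and overlapped at stage 1 and in mature florets. At stage 4 they summed to 274 to 345 CPM in IR64 against 166 to 201. By gene, 2, 4 and 2 of these 6 were called lower at stages 3, 4 and 5, and none at the other stages or in the interaction. In the mean over stages, 6 of 6 green tissue and 5 of 8 tapetum genes were called lower, beside 10.6% of all tested genes called in either direction. Late pollen genes summed to at most 3.46 CPM in every developing library, and to 1385 to 2781 CPM in mature IR64 against 1503 to 2219. None of the tapetum and green tissue genes was at 0 counts in any group, while 3 or 4 of the 6 late pollen genes were at 0 in each developing group. The part of these markers in the differences of SWEET15, SWEET11 and SUT1 was not tested.

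**Figure D3:**
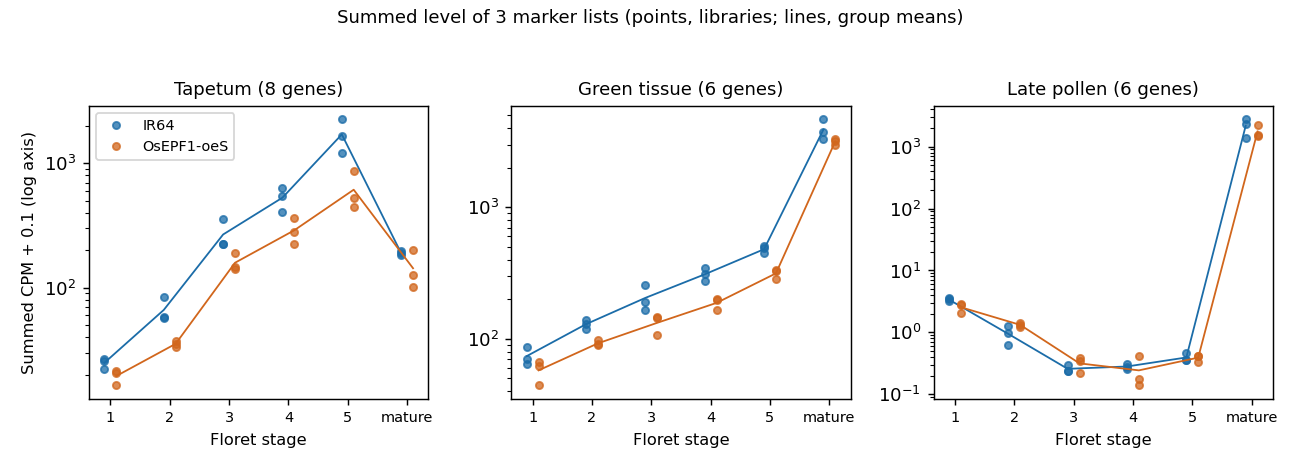
Summed CPM plus 0.1 on a log axis of 8 tapetum, 6 green tissue and 6 late pollen marker genes at 6 floret stages, with a point per library and lines through the means of IR64 (blue) and OsEPF1-oeS (orange). Tapetum sums of OsEPF1-oeS lie below IR64 at stages 1 to 5 and green tissue sums at stages 2 to 5, while late pollen sums rise from at most 3.46 CPM in developing florets to at least 1385 CPM in mature florets.

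Across development, most called changes of these genes were rises in both lines. Of 45 pairs of gene and step between successive stages, 21 were called in IR64 (18 up, 3 down) and 21 in OsEPF1-oeS (19 up, 2 down). In IR64, 2 of 9 genes rose from stage 1 to 2 (10.8% of all tested genes were called in either direction), 5 from stage 2 to 3 (19.7%), 4 from stage 3 to 4 (15.2%) and 1 from stage 4 to 5 (10.4%). From stage 5 to mature IR64 florets all 9 were called, 6 up and 3 down, where 68.6% of all tested genes were called. In OsEPF1-oeS the same steps had 3 of 9 genes rising (9.06% of all called), 5 (22.4%), 4 (12.1%) and 1 (7.73%), and 6 rose and 2 fell at maturation (69.3%).

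Among the steps of SUT1, the rise at maturation was the largest in both lines. Its level in IR64 went from 0.739 ± 0.174 CPM (SD, n = 3) at stage 1 to 8.11 ± 1.03 CPM at stage 5 and 249.8 ± 35.8 CPM in mature florets. In OsEPF1-oeS it went from 0.965 ± 0.551 CPM to 13.2 ± 1.34 CPM and 310.1 ± 85.4 CPM. The libraries of neighbouring stages did not overlap except stages 1 and 2 in IR64 and stages 3 and 4 in OsEPF1-oeS. The maturation step was 4.94 ± 0.25 in IR64 (adjusted p = 2.7e-16) and 4.55 ± 0.24 in OsEPF1-oeS (adjusted p = 9e-16). Before it, the step from stage 2 to 3 passed in both lines (1.85 ± 0.28 and 1.36 ± 0.25), and the step from stage 1 to 2 passed in OsEPF1-oeS (1.50 ± 0.30, adjusted p = 0.00099) and not in IR64 (0.59 ± 0.34, adjusted p = 0.32).

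SUT2, a carrier of the vacuolar membrane that releases sucrose into the cytosol, rose from stage 2 to 4 and fell at maturation. IR64 held 32.8 ± 0.551, 40.9 ± 2.02, 62.9 ± 5.91, 101 ± 6.56 and 129 ± 16.4 CPM at stages 1 to 5 and 77.8 ± 15.3 CPM in mature florets. OsEPF1-oeS held 36.6 ± 4.07, 43.7 ± 3.92, 70.6 ± 4.19, 99.7 ± 6.20 and 123 ± 12.4 CPM, and 80.3 ± 15.2 CPM when mature. The steps called were 2 to 3 (0.62 ± 0.13 in IR64, 0.69 ± 0.13 in OsEPF1-oeS), 3 to 4 (0.68 ± 0.13 and 0.50 ± 0.13) and the fall at maturation (-0.73 ± 0.13 and -0.61 ± 0.13). Without OsEPF1-oeS stage 3 replicate 3 the step from 3 to 4 in that line lost its call (0.45, adjusted p = 0.051, the highest over its alternatives, against 0.0082 with all libraries). Mature libraries overlapped stage 4 in both lines, and also stage 3 in OsEPF1-oeS.

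SUT3 was found only in mature florets. All 30 developing libraries held 0 counts, which allows at most 0.0403 CPM in any developing group, counting error only. Mature IR64 florets held 57.7, 77.5 and 36.7 CPM and mature OsEPF1-oeS florets 35.6, 89.5 and 72.7 CPM, and the lines overlapped. Mature florets were at least 1465-fold higher than stage 5 in IR64 and at least 1577-fold higher in OsEPF1-oeS, against the floor of 3 counts summed over a group (adjusted p = 3.9e-06 and 3.5e-06). DESeq2 gave adjusted p values of 0.097 and 0.092 for these steps. SUT3 of rice is known from pollen, and the late pollen marker sums were likewise near 0 before the mature stage. Their part in this result was not tested.

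SUT4 varied least among the SUT genes. Its group means lay between 33.1 and 48.7 CPM in IR64 and between 31.7 and 44.4 CPM in OsEPF1-oeS, highest at stage 5, and most neighbouring stages overlapped. No developing step passed in either line. The fall at maturation was -0.35 ± 0.13 in IR64 (adjusted p = 0.017) and -0.18 ± 0.13 in OsEPF1-oeS (adjusted p = 0.21). The IR64 call was lost under 3 of 15 alternatives. Without stage 5 replicate 1 the step was -0.18 (adjusted p = 0.23, the highest over its alternatives). It was also not called with the 6 libraries fitted alone or without the 3 libraries farthest from their groups.

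SUT5, a sucrose transporter of the plasma membrane, rose early. In IR64 it held 1.20 ± 0.32, 5.60 ± 0.485 and 15.5 ± 0.793 CPM at stages 1, 2 and 3, and in OsEPF1-oeS it went from 1.27 ± 0.367 to 5.12 ± 0.960 and 15.5 ± 0.876 CPM. These steps were 2.22 ± 0.20 and 1.47 ± 0.18 in IR64, and 2.00 ± 0.20 and 1.60 ± 0.18 in OsEPF1-oeS, with adjusted p values of at most 4.8e-07. Stages 3, 4 and 5 overlapped as neighbours in the order of levels in both lines, with no step called between them. Mature florets were higher again than stage 5, at 24.4 ± 2.32 CPM in IR64 (0.87 ± 0.17, adjusted p = 5.3e-05) and 19.7 ± 4.31 CPM in OsEPF1-oeS (0.59 ± 0.17, adjusted p = 0.0031).

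Among the SWEET genes, SWEET4, a hexose carrier known for its part in grain filling, showed no called step before maturation. Its developing libraries lay between 40.6 and 77.3 CPM in IR64 and between 32.4 and 93.9 CPM in OsEPF1-oeS. Mature florets held 1096, 835 and 797 CPM in IR64 and 585, 769.9 and 1229 CPM in OsEPF1-oeS, all above every developing library. The maturation step was 4.26 ± 0.31 in IR64 (adjusted p = 1.2e-12) and 4.00 ± 0.31 in OsEPF1-oeS (adjusted p = 3.3e-12).

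SWEET11 rose from stage 1 to 4 and fell at maturation. In IR64 it rose from 21.4 ± 4.24 CPM at stage 1 to 179 ± 28.8 CPM at stage 4, overlapped between stages 4 and 5, and was 91.6 ± 6.35 CPM in mature florets. In OsEPF1-oeS it held 15.0 ± 0.768 CPM at stage 1, 118 ± 3.21 CPM at stage 4 and 139 ± 12.4 CPM at stage 5, and was 57.2 ± 8.88 CPM when mature, and no neighbours in the order of its stage levels overlapped. The first 3 steps were called in both lines (1.10 ± 0.15, 1.42 ± 0.15 and 0.55 ± 0.14 in IR64, 1.06 ± 0.15, 1.32 ± 0.15 and 0.59 ± 0.14 in OsEPF1-oeS). The fall at maturation was -0.79 ± 0.14 (adjusted p = 2e-05) and -1.28 ± 0.15 (adjusted p = 7.1e-09). The third IR64 step lost its call without stage 3 replicate 3 (adjusted p = 0.051) or stage 4 replicate 1 (0.080, the highest over its alternatives).

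SWEET14, also known as Os11N3 and like SWEET11 a target of bacterial blight effectors, was at 0 counts in 14 of the 30 developing libraries. Over the 3 libraries of a group, IR64 held 0, 2 and 10 counts at stages 1, 2 and 3, and OsEPF1-oeS held 0 at each. Of the 10 counts of IR64 at stage 3, 8 lay in replicate 1, among the 3 libraries farthest from their groups. Replicates 2 and 3 held 1 count each. The IR64 ratio of stage 3 to stage 2 was 4.44 with a 95% exact counting interval of 0.945 to 41.6. That interval holds counting error only and not the spread between libraries, and the step was not called (adjusted p = 0.24). From stage 3 to 4 it rose by 3.48 ± 0.67 in IR64 (adjusted p = 0.00089) and was at least 11.8-fold higher in OsEPF1-oeS (adjusted p = 0.0017). At maturation it rose by 2.73 ± 0.52 and 2.97 ± 0.53, to 6.11 ± 1.47 CPM in IR64 and 6.37 ± 2.37 CPM in OsEPF1-oeS. Stages 4 and 5 overlapped in both lines. At stage 3 OsEPF1-oeS was 2.29-fold lower than IR64 with its 0 counts set at the floor of 3, which did not pass (adjusted p = 0.29). This value takes the 10 IR64 counts as exact, so it is not a lower bound on the difference.

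SWEET15 rose at every step from stage 2 on in both lines. The IR64 steps were 1.45 ± 0.28, 1.25 ± 0.26, 1.04 ± 0.26 and, at maturation, 1.86 ± 0.26. The OsEPF1-oeS steps were 1.97 ± 0.34, 1.28 ± 0.28, 1.43 ± 0.27 and 2.85 ± 0.27. From stage 1 to 2 the rise did not pass in IR64 (0.87 ± 0.30, adjusted p = 0.065) or in OsEPF1-oeS (0.59 ± 0.41, adjusted p = 0.50). The group means went from 2.37 ± 0.378 to 210.3 ± 54.5 CPM in IR64 and from 0.715 ± 0.436 to 203 ± 49.4 CPM in OsEPF1-oeS, and only stages 1 and 2 of OsEPF1-oeS overlapped as neighbours.

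**Figure D4:**
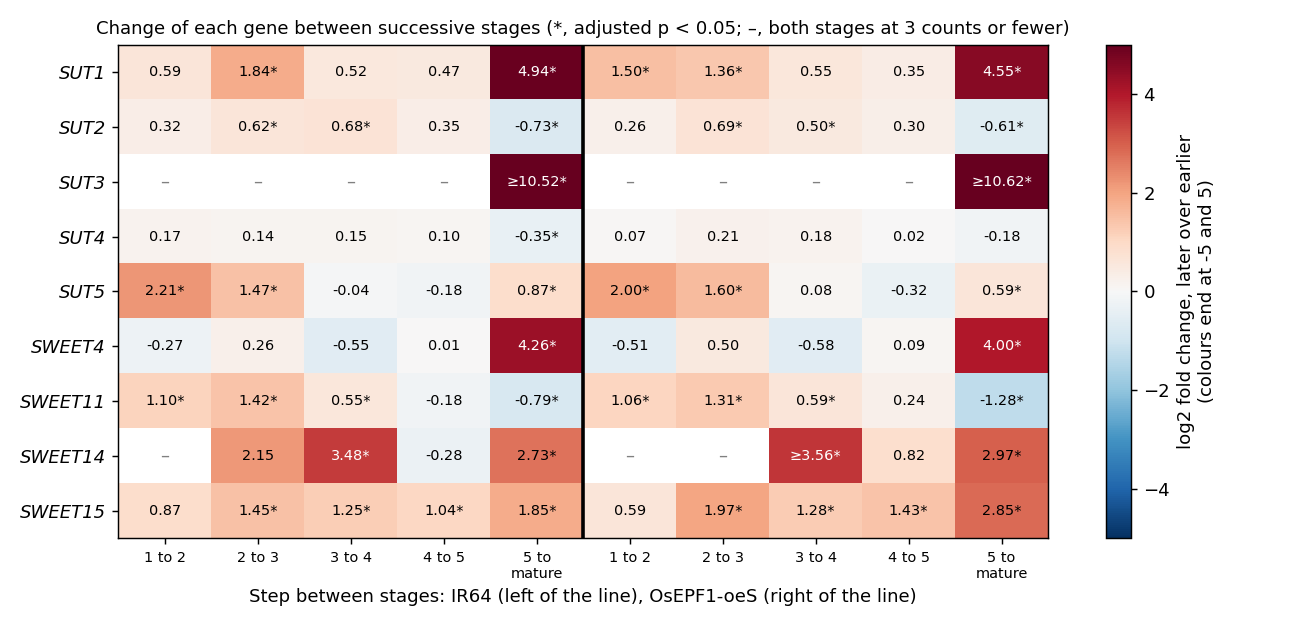
Log2 fold change of each of the 9 genes (vertical axis) between successive stages in IR64 (left of the line) and OsEPF1-oeS (right of the line), with an asterisk for an adjusted p under 0.05. The deepest red lies in the maturation columns for SUT1, SUT3 and SWEET4, whose steps are 4.00 or more, and blue with an asterisk there marks falls of SUT2 and SWEET11 in both lines and of SUT4 in IR64; values with a greater-or-equal sign are bounds against 3 counts, and dashes mark pairs of stages at 3 counts or fewer.

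A few other genes of sugar handling were called between the lines. In the mean over stages these were 1 of 11 tested other SWEET, 1 of 11 sucrose cleavage and 1 of 6 hexose transporter genes. Over all tested genes, 10.6% were called in that mean. At single stages, 1, 4 and 1 pairs of gene and stage were called, over the 11, 11 and 6 tested genes at each of 6 stages. The shares of all tested genes called at single stages were 0.834% to 2.45%. Of 11 tested genes among 14 other SWEET genes, SWEET2b was called lower in mature OsEPF1-oeS florets (-1.75 ± 0.30, adjusted p = 0.0016), with 36.4 to 60.1 CPM in IR64 and 10.8 to 17.9 CPM in OsEPF1-oeS. Fitted on the 6 libraries alone, SWEET2b was not called (adjusted p = 0.11). SWEET2a was called higher in the mean over stages (0.15 ± 0.05, adjusted p = 0.038), a call lost without 20 of the 36 libraries left out in turn (adjusted p of 0.052 to 0.083). The SWEET2a call was also lost with no filter on low counts. Of 11 tested genes of sucrose cleavage, CIN2, a cell wall invertase known as GIF1 for its role in grain filling, was lower at stages 2 (-0.74 ± 0.14), 3 (-0.98 ± 0.14) and 4 (-0.68 ± 0.14) and in the mean (-0.60 ± 0.06, adjusted p = 9.8e-09). At stage 3 CIN2 held 82.0 to 102 CPM in IR64 and 41.6 to 51.3 CPM in OsEPF1-oeS, without overlap, and its calls held under every alternative. SUS4, a sucrose synthase, was higher at stage 5 (1.00 ± 0.27, adjusted p = 0.044). That call was lost without replicate 1 (adjusted p = 0.16) or 2 (0.21) of IR64, or replicate 2 (0.15) or 3 (0.19) of OsEPF1-oeS. The SUS4 call was also lost with the 6 libraries fitted alone, with no filter on low counts and with upper-quartile scaling. Of 6 tested hexose transporter genes, MST6 was lower at stage 5, with 33.9 to 87.3 CPM in IR64 and 4.52 to 24.8 CPM in OsEPF1-oeS (-2.27 ± 0.51, adjusted p = 0.012), and in the mean (-1.32 ± 0.28, adjusted p = 0.0021). Its stage 5 call was lost without replicate 1 of IR64 (adjusted p = 0.12), or replicate 2 (0.10) or 3 (0.098) of OsEPF1-oeS. With the 6 libraries of stage 5 fitted alone, MST6 was not called (adjusted p = 0.45). No gene of these lists was called in the interaction.

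At maturation these lists moved in both directions. Of the 11 other SWEET, 11 sucrose cleavage and 6 hexose transporter genes tested, 8, 6 and 2 rose and 1, 3 and 3 fell in IR64. In OsEPF1-oeS 8, 6 and 3 rose and 2, 3 and 2 fell. Of all tested genes 68.6% and 69.3% were called at this step, in either direction. SWEET5 rose by 11.68 ± 0.89 in IR64, and SWEET6a by 10.39 ± 0.68 in IR64 and 10.58 ± 0.70 in OsEPF1-oeS, although SWEET6a and SWEET6b share a RefSeq entry and their counts are uncertain. The vacuolar invertase gene INV2 rose by 6.69 ± 0.22 and 6.54 ± 0.22, and the cell wall invertase gene CIN1 by 5.26 ± 0.36 in IR64. The sucrose synthase gene SUS1 fell by 4.96 ± 0.34 in OsEPF1-oeS. The monosaccharide transporter gene MST5 was 6917-fold higher in mature than in stage 5 florets of IR64 (95% exact counting interval 1914 to 57130) and MST4 rose by 4.89 ± 0.51. From stage 2 to 3, INV2 rose by 2.44 ± 0.31 in IR64 and 3.30 ± 0.35 in OsEPF1-oeS, MST3 by 2.56 ± 0.55 and 4.04 ± 0.68, and SWEET2b by 4.29 ± 0.59 in OsEPF1-oeS.

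The stage and line patterns of the 9 genes were set against those of every tested gene by Pearson's r over 12 group means of log2 CPM, as a description. The 12 points share libraries and depth, and between 92 and 3169 of the tested genes had an r over 0.95 with each of the 9. Among the listed genes, SUT1 was most like INV2 (r = 0.985), SUT2 most like MST3 (0.98), SUT4 most like TDR (0.98), SUT5 most like SWEET2a (0.913) and SWEET4 most like MST5 (0.991). SWEET11 was most like TDR (0.975), SWEET14 most like PSAF (0.961), a photosystem gene, and SWEET15 most like CIN2 (0.982). SUT3 was most like the late pollen expansin gene EXPB13 (r = 1.000 as rounded), both being at 0 counts in all developing groups. Over all tested genes the single most alike IDs were Os04g0674600 for SUT1 (0.993), Os12g0163050 for SWEET4 (0.996), Os02g0687500 for SWEET11 (0.995) and Os03g0118600 for SWEET15 (0.989). Among the 9 themselves, the highest values were 0.99 between SUT3 and SWEET4, 0.95 between SUT4 and SWEET11 and 0.95 between SWEET14 and SWEET15, and the lowest was -0.16 between SUT4 and SWEET4.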

How the data were processed

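The authors deposited raw counts of reads for 37862 gene IDs in 36 libraries. Per the submitters' processing notes, the authors used featureCounts, Subread 2.0.0, HISAT2 2.1.0 and Trimmomatic 0.38, and the genome build was IRGSP-1.0. How strand and multiply mapped reads were handled is not stated there, so counts of a gene may hold reads of an overlapping or antisense neighbour. Per the labels, poly(A) libraries were built with NEBNext kits. Replicates are separate samples in the labels.

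Tests were run with edgeR 4.0.16 (R 4.3.3): filterByExpr, TMM scaling, a group-means model of 12 groups with robust quasi-likelihood tests (24 residual degrees of freedom) and Benjamini-Hochberg adjustment over 26726 genes. Each comparison is thus judged in part by the spread in groups outside it. Where a group summed to 0 counts, folds are bounds against 3 counts over the group. Likeness used log2 CPM with a prior count of 2. On simulated counts with known changes, 71% to 80% of 2-fold and 91% to 96% of 4-fold changes between the lines were recovered at single stages. The changed genes were drawn only from genes above a minimum mean simulated count, and each had the same fold at every stage. Genes below that minimum are thus not covered by the recovered shares. The false share of the calls there ran from 4.09% at stage 1 to 8.56% in mature florets. These shares are not split by count level. Recovery at low counts, as for SWEET14 in developing florets and SUT1 and SWEET15 at stages 1 and 2, was not tested separately. Alternatives were RLE and upper-quartile scaling, no filter on low counts or at least 5 CPM in at least 3 libraries, no robust option, a replicate block, DESeq2 1.42.0, the 6 libraries compared alone, each library left out in turn and, chosen after seeing the data, without the 3 libraries farthest from their groups.

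The 9 genes and the lists (14 other SWEET, 12 sucrose cleavage, 7 hexose transport, 8 tapetum, 6 late pollen and 6 green tissue genes) were chosen with earlier results of these data known. All 9 genes are named, with list genes called between the lines and, per list and step, 1 to 4 called genes with the largest change. Symbols come from general knowledge of rice genes. Of 62 entries, 35 had a relative rank on their chromosome within 0.02 of that of the RefSeq gene with the symbol, 1 (SWEET13) did not, and 26, among them SUT3, had no RefSeq symbol. No coordinates are printed, since the RefSeq table is of another build.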

Additional observations from a re-analysis of the deposited data

Results flagged for a closer look

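SWEET15 was the only 1 of the 9 genes, and the only one among these and the other listed genes of sugar handling, whose difference between OsEPF1-oeS and IR64 itself differed between stages (adjusted p = 0.038, edgeR's quasi-likelihood test of the genotype by stage interaction). The difference was -1.71 at stage 1 and -1.99 at stage 2, and -0.06 in mature florets. The call was lost without 19 of the 36 libraries left out in turn, and with DESeq2 and the scaling and filter alternatives it passed. Without the 3 libraries farthest from their groups it also passed. No test for a single outlying value was run in these groups of 3 libraries.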

How the results depend on the processing

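The 9 calls between the lines at single stages became 3 when the 6 libraries of each comparison were fitted alone (SWEET15 at stages 4 and 5 and SWEET11 at stage 4), and 8 to 10 when each library was left out in turn. They were 12 with DESeq2, 10 with upper-quartile scaling, at least 5 CPM, the replicate block or without the 3 farthest libraries, and 9 under RLE scaling, no filter or no robust option. The 3 calls in the mean over stages held under every alternative that gives a mean. The interaction count was 1 under every other alternative that gives one and 0 to 1 when each library was left out. Calls of steps ran from 19 to 22 in each line. SWEET15 in mature florets turned to 0.17 without the 3 farthest libraries, and ran from -0.27 to 0.18 when 1 library was left out, and SUT1 at stage 1 ran from -0.12 to 0.74. The cause was not tested, beyond the fewer libraries in such fits.

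Over all genes, DESeq2 called 378, 551, 726 and 1096 at stages 1 to 4, 967 in mature florets and 1504 in the interaction, against 223, 315, 453, 635, 541 and 599. The 6 libraries alone called 144, 56, 396, 99 and 8 at stages 1, 3, 4 and 5 and mature, 2628 from stage 3 to 4 of IR64 and 1122 from stage 4 to 5 of OsEPF1-oeS, against 223, 453, 635, 654, 541, 4074 and 2066. Without the 3 farthest libraries, 1198, 1332 and 4806 were called at stages 4, 5 and in the mean, against 635, 654 and 2830. Upper-quartile scaling moved the median of all genes by -0.16 (IR64) and -0.11 (OsEPF1-oeS) at maturation, and the share of calls between mature lines that were higher from 38.1% to 51.8%, but turned no sign of a called value of the 9 genes.

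The replicate numbers did not meet the criterion for pairing the libraries, a correlation over 0.1 in every pair: of 18 same-numbered pairs, 6 had a correlation of deviations over 0.1 (range -0.28 to 0.19), and 8 correlated best with their own number. With the replicate block 10 calls, SUT1 at stage 4 being the one added, at single stages, 3 in the mean, 1 in the interaction, 22 IR64 steps and 21 OsEPF1-oeS steps were made. Depth limits SUT3 and SWEET14 in developing florets, where 0 counts allow up to 0.0403 CPM.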

Other observations

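SWEET15 levels in OsEPF1-oeS lay within reach of those of IR64 at the preceding stage. At stage 3 OsEPF1-oeS held 3.41 to 5.70 CPM and IR64 at stage 2 held 3.84 to 5.25 CPM. At stage 4 the ranges were 9.21 to 11.1 CPM against 9.17 to 14.7 CPM in IR64 at stage 3, and at stage 5 they were 25.0 to 29.9 CPM against 24.5 to 33.1 CPM in IR64 at stage 4. These ranges overlapped, whereas at stage 2 OsEPF1-oeS held 0.359 to 1.69 CPM, below the 1.94 to 2.64 CPM of IR64 at stage 1. SWEET11 in OsEPF1-oeS overlapped IR64 of the stage before at stage 2 (25.0 to 38.1 against 17.8 to 26.1 CPM), stage 4 (115 to 121 against 109 to 144 CPM) and stage 5 (126 to 150.5 against 148 to 205 CPM). At stage 3 it was above it, at 71.6 to 82.5 against 41.9 to 51.4 CPM. SUT1 rose with stage and was higher in OsEPF1-oeS without overlap from stages 2 to 5, so it could not show such an overlap. At stage 5 OsEPF1-oeS held 12.2 to 14.8 CPM of SUT1 and IR64 at stage 4 held 5.05 to 6.74 CPM. These offsets were noticed in the data and not tested.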
